A study of Homo sapiens with 4 samples.

Results

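The genes described here encode the B-cell receptor signalling proteins that act below the Src family kinases. The list holds 36 genes, and a member was read by the probe sets whose platform annotation gave its symbol and no other. Such probe sets existed for 35 of the 36 members, among 19775 genes represented in this way on the arrays. PIK3AP1, the gene of a PI3K adaptor, was not analysed here. RNA came from Jeko-1, a mantle cell lymphoma line, from Raji, a Burkitt lymphoma line, and from a derivative of each that resists rituximab, called Jeko-1/R or Raji/R. Rituximab is an antibody against the B-cell surface protein CD20. The labels describe the parental cells as without rituximab treatment and the sublines as treated with it, and the dose, the length of treatment and whether a subline is a single clone are not given in the sources used here. Each of the 4 groups was measured on 1 array, which limits the precision, and a subline against its own parent therefore has no p-value. The comparison of a subline with its parent asks which transcripts differ once the cells resist the antibody.

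When the B-cell receptor binds antigen, Src family kinases phosphorylate its signalling chains, and the kinase SYK docks there. SYK phosphorylates the adaptor BLNK, on which BTK and phospholipase C gamma 2 assemble. The phospholipase makes a second messenger that opens calcium channels in the endoplasmic reticulum and another that activates protein kinase C, which leads through BCL10 and MALT1 to NF-kB. In parallel PI3-kinase makes the lipid that recruits BTK and AKT, and phosphatases and ubiquitin ligases hold the pathway back. Mantle cell and other B-cell lymphomas often depend on this pathway, and inhibitors of BTK and PI3K delta are used against some of them.

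Values are MAS5 signals on a linear scale, which compare a probe set between arrays and not different genes with each other. Where a gene had several probe sets, the brightest probe set by its mean over the 4 arrays stood for the gene. Runs of 4 signals below follow the order Jeko-1, Jeko-1/R, Raji, Raji/R. The pooled median of all deposited values, a signal of 77.5, served as a floor to which lower values were raised, and a ratio with a single side below it is written "at least". Of the 35 members, 33 stood at or above the floor on all arrays, and ITPR2 and NFATC2 were below it on at least 1 array. The B-cell markers CD79A, CD79B, MS4A1, PAX5 and CD22 were above the floor on all 4 arrays. The mantle cell lymphoma markers CCND1 and SOX11 were above it on both Jeko-1 arrays and below it on both Raji arrays. NK-cell markers were at or above the floor for 0 to 3 of 6 genes per array, with summed signals of 233 and 140.0 on the Jeko-1 and Jeko-1/R arrays and of 1121 and 2147 on the Raji and Raji/R arrays. Myeloid markers reached the floor for 0 to 2 of 6 genes, and their summed signal lay between 199 and 772. T-cell markers reached it for 2 to 5 of 9 genes, with a summed signal of 1234 to 4138 per array. On the Raji/R array 55.6% of all probe sets reached the floor, against 48.0% to 48.3% on the other arrays, and the part of this difference, or of these markers, in the values that follow was not tested.

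Nearly all members lay within 2-fold of the parent in both sublines. In the Jeko-1 pair 0 of 35 members were at least 2-fold higher in the subline, against 0.38% of 11588 measured genes. Likewise 0 of 35 were at least 2-fold lower, against 0.595% of genes. At these shares of all genes a count of 0 among 35 says nothing particular about the members. The extremes in Jeko-1/R were the exchange factor gene VAV2, with a log2 ratio of 0.60, and the kinase gene PRKCD, with -0.45. In the Raji pair, where 34 members were measured, NFATC1 was at least 2-fold higher in the subline, which is 1 of 34 members against 7.01% of 14642 genes. At least 2-fold lower were 0 of 34 members, against 2.64% of genes. The split of all genes in this pair, 1026 higher and 386 lower, became 847 and 735 with quantile normalization and 350 and 806 with a lowess adjustment. The median log2 ratio of the members was 0.05 within Jeko-1 and -0.05 within Raji, beside medians of 0.001 and 0.08 over all genes measured in each pair. As a stand-in for error, log2 ratios of different probe sets of a gene had a pooled SD of 0.27 for Jeko-1 and 0.56 for Raji, which does not cover differences between cultures.

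**Figure D1:**
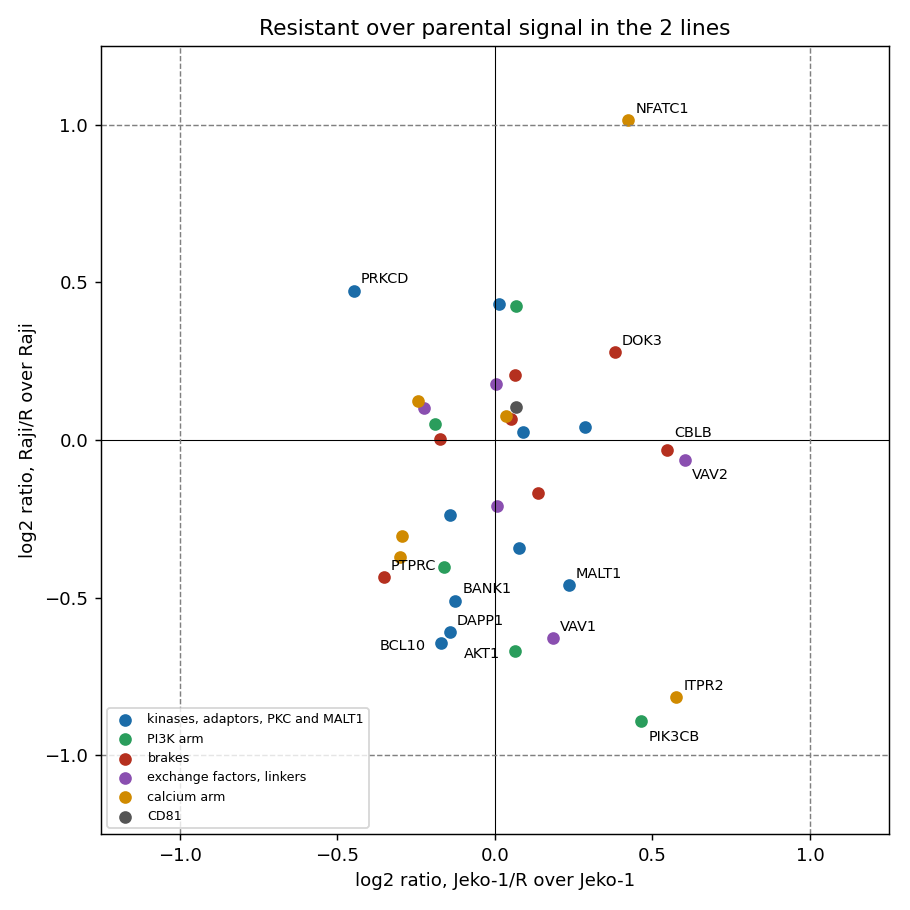
Log2 ratio of resistant over parental signal in Jeko-1 (x axis) and Raji (y axis) for the 34 members measured in both pairs, coloured by role, with 1 array per group and dashed lines at a 2-fold difference. NFATC1 is the point past a dashed line, at 0.42 and 1.02, while ITPR2 and PIK3CB lie at the lower right with opposite signs in the lines; NFATC2 is not drawn because both Raji arrays were below the floor.

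Over both lines, with the cell line as a block, 0 of 35 members passed an adjusted p of 0.05 for resistance in limma, and so did 0% of all 15575 genes tested. At an unadjusted p under 0.05 the fit gave 324 genes (2.08%), of which 1 was a member, NFATC1. Its log2 difference between resistant and parental cells was 0.72 ± 0.27 (SE, 2 pairs), with an adjusted limma p of 0.97. The members were spread over both directions, since 8 of 34 were lower in both sublines and 11 of 34 were higher in both, beside 2640 and 2666 of 10655 genes measured in both pairs.

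The plain contrast in these data was between the lines. The cell line term of the same limma fit called 9 of 35 members higher in the Jeko-1 arrays, against 23.3% of 15575 genes, and 12 of 35 higher in the Raji arrays, against 30.1% of genes. The members' shares, 25.7% and 34.3%, lay near those of all genes. A line is represented here by a parent and its own subline, which are not independent cultures of the line. The p-values rest on how far the shift from parent to subline differed between the lines, a spread that limma pools partly over all genes. They do not measure the spread between independent cultures. With the Jeko-1 array left out 0 members were called (lowest adjusted p 0.060) and with the Jeko-1/R array left out also 0 (lowest adjusted p 0.062), as were 0 of all genes. Fits with an array left out held the cell line term without resistance, and their spread came from the pair left intact. The loss of calls can therefore not be credited to the removed array alone. Without the Raji array 19 members were called, and 59.2% of all genes, and without the Raji/R array 14 members and 44.8% of genes. By size alone, 8 of 35 members were at least 2-fold higher in Jeko-1 in both states, parental and resistant, against 17.5% of genes, and 7 of 35 were at least 2-fold higher in Raji in both states, against 19.2%. All 21 called members had a line difference of 1 sign in the parental and the resistant arrays. A gene with opposite signs could not have been called in this fit, so this adds no support to the calls.

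**Figure D2:**
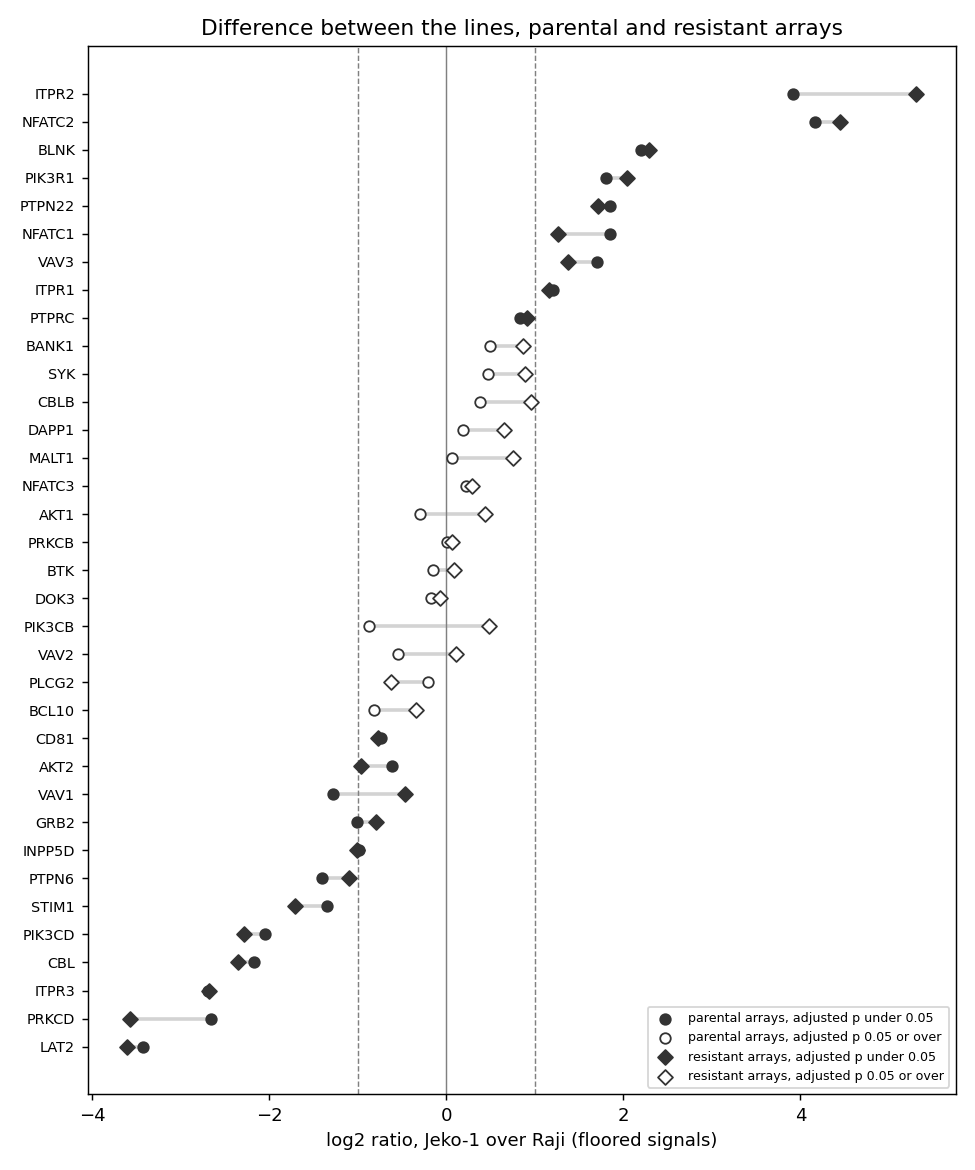
Log2 ratio of Jeko-1 over Raji signal for the 35 members, sorted by the mean difference, with circles for the parental arrays and diamonds for the resistant arrays, filled where the cell line term had an adjusted limma p under 0.05 and dashed at a 2-fold difference. ITPR2 and NFATC2 sit at the Jeko-1 end and LAT2 and PRKCD at the Raji end. Circle and diamond of a called gene lie on 1 side of 0, which a call in this fit requires.

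Among the receptor-proximal kinases and adaptors, BLNK and PRKCD were called between the lines, which is 2 of 10 members, 1 in each direction, against 53.4% of all genes called. BLNK, the scaffold that SYK phosphorylates, read 13217 and 11985 in Jeko-1 and its subline, and 2883 and 2443 in Raji and its subline. Both Jeko-1 arrays lay above both Raji arrays, by 4.58-fold between the parents and 4.91-fold between the sublines (log2 difference 2.25 ± 0.24 SE, adjusted limma p 0.00033). PRKCD, the gene of protein kinase C delta, which restrains B-cell responses, went the other way. Its signals were 111 and 81.4 in Jeko-1 and its subline, and 698 and 969.9 in Raji and its subline, so that the Jeko-1 arrays stood close to the floor. The Raji arrays were 6.29-fold higher between parents and 11.9-fold higher between sublines (log2 difference -3.11 ± 0.30 SE, adjusted limma p 0.00020). BTK, the target of ibrutinib, gave 2859 and 3486 in Jeko-1 and its subline, and 3183 and 3272 in Raji and its subline, and the arrays of the lines overlapped. PRKCB, the gene of the protein kinase C that acts upstream of MALT1, gave 3536, 3759, 3530 and 3594 on the same arrays by its brightest probe set. SYK gave 5305, 5589, 3840 and 3026, with both Raji arrays below both Jeko-1 arrays (log2 difference 0.68 ± 0.26 SE, adjusted limma p 0.062). PLCG2, the gene of the phospholipase, gave 5519, 5576, 6346 and 8567. BANK1, a B-cell scaffold gene, gave 1374, 1259, 979 and 688, and DAPP1, a lipid-binding adaptor gene, gave 2061, 1866, 1814 and 1188. In both of these genes the Raji/R array was the lowest of the 4. The same held for MALT1, the protease gene of the NF-kB arm, at 762, 897, 730.1 and 531. BCL10, its partner gene, gave 2376, 2111, 4176 and 2673. Of these 10 members 0 were 2-fold apart within a pair, too few members to differ visibly from all genes. The shares of all genes were 0.38% higher and 0.595% lower in the Jeko-1 pair, and 7.01% and 2.64% in the Raji pair. The 8 members of this group not called between the lines are not shown to be alike in them. SYK was called in 6 of 9 alternatives, BANK1 in 3 of 8 and BCL10 in 3 of 9. MALT1 and PRKCB were called in 2 of 9 each.

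In the PI3K arm PIK3CD, PIK3R1 and AKT2 were called between the lines, which is 3 of 5 measured members against 53.4% of all genes. PIK3CD, the gene of the catalytic subunit p110 delta that predominates in lymphocytes, read 3459 and 3034 in Jeko-1 and its subline, and 14277 and 14788 in Raji and its subline. The Raji arrays were 4.13-fold higher between parents and 4.87-fold higher between sublines (adjusted limma p 0.00041). PIK3R1, the gene of the regulatory subunit p85 alpha that binds p110, was ordered the other way, at 2114, 1890, 606 and 459 (log2 difference 1.92 ± 0.25 SE, adjusted limma p 0.00068). AKT2, an AKT kinase gene, gave 874, 916, 1333 and 1791 (adjusted limma p 0.034), but other probe sets of AKT2 put the lines in the opposite order, as given below. AKT1 gave 243, 254, 298 and 187, with Raji/R the lowest and Raji the highest. PIK3CB, the gene of p110 beta, gave 553, 763, 1011 and 546. Its log2 ratios were 0.46 within Jeko-1 and -0.89 within Raji, so that the sublines lay on opposite sides of their parents. PIK3CB was not called between the lines (log2 difference -0.19, adjusted limma p 0.67). Among the 5 members 0 were 2-fold apart within a pair, too few members to differ visibly from all genes. The shares of all genes were 0.38% higher and 0.595% lower in the Jeko-1 pair, and 7.01% and 2.64% in the Raji pair.

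Among the brakes, CBL, the gene of a ubiquitin ligase that marks activated receptors and kinases for degradation, differed most between the lines by brightest probe sets. It gave 939.6 and 833 in Jeko-1 and its subline, and 4238 and 4245 in Raji and its subline, with the Raji arrays 4.51-fold and 5.09-fold higher (adjusted limma p 0.00033). Its relative CBLB gave 1940, 2831, 1489 and 1456, with log2 ratios of 0.55 and -0.03 in the pairs (adjusted limma p between the lines 0.072). PTPN22, a phosphatase gene with variants linked to autoimmunity, was higher in Jeko-1, at 968, 1012, 268 and 309 (log2 difference 1.78 ± 0.24 SE, adjusted limma p 0.00090). PTPN6, which encodes the phosphatase recruited by inhibitory receptors, was higher in Raji, at 541, 594, 1434 and 1275 (adjusted limma p 0.0048). INPP5D, the gene of the lipid phosphatase that removes the product of PI3K, gave 1404, 1455, 2785 and 2918 by its brightest probe set (adjusted limma p 0.012). PTPRC, the gene of CD45, which keeps Src kinases ready, gave 8040, 6295, 4515 and 3343. Both PTPRC pairs had the subline below its parent, by log2 ratios of -0.35 and -0.43, and neither reached 2-fold. DOK3, an adaptor gene that dampens calcium flux, had both sublines above their parents, at 4299 and 5592 for Jeko-1 and 4855 and 5890 for Raji. In all, 5 of 7 brakes and phosphatases, PTPRC among them, were called between the lines. Of these 2 were higher in Jeko-1 and 3 higher in Raji, against 23.3% and 30.1% of all genes in these directions.

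Of the linkers and exchange factors 4 of 5 were called between the lines, against 53.4% of all genes. LAT2, the gene of a transmembrane adaptor related to the T-cell linker LAT, read 718 and 720.2 in Jeko-1 and its subline, and 7739 and 8749 in Raji and its subline. The Raji arrays were 10.8-fold and 12.1-fold higher (log2 difference -3.52 ± 0.25 SE, adjusted limma p 6.7e-05), while the sublines stayed within 0.01 and 0.18 of their parents on the log2 scale. A dim LAT2 probe set, below the floor on both sublines, gave -0.06 between the parents and a mean of -0.03 with the sublines counted as 0. LAT2 was not called without x_at and s_at probe sets, whose probes can match several transcripts or genes (adjusted limma p 0.93). GRB2, which couples receptors to Ras, gave 3887, 3906, 7822 and 6769 (adjusted limma p 0.019), a call kept in 6 of 9 alternatives. The 3 Vav genes encode guanine nucleotide exchange factors, and they did not share an order. VAV1, the haematopoietic member, gave 827, 940.1, 2007 and 1298 and was higher in Raji (adjusted limma p 0.038), a call kept in 4 of 8 alternatives. VAV2 gave 759, 1152, 1111 and 1064, so that the Jeko-1 array stood below the others. VAV3 was higher in Jeko-1, at 371, 317, 114 and 123 (log2 difference 1.53 ± 0.25 SE, adjusted limma p 0.0020), a call lost with the floor at the 75th percentile (adjusted limma p 0.97). CD81, the gene of a tetraspanin of the B-cell surface, gave 8575, 8984, 14297 and 15359, with the Raji arrays 1.67-fold and 1.71-fold higher (adjusted limma p 0.035), a call lost with quantile normalization (adjusted limma p 0.47).

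The calcium arm had 6 of 7 members called between the lines, 4 higher in Jeko-1 and 2 higher in Raji, against 23.3% and 30.1% of all genes in these directions. The inositol trisphosphate receptors, which release calcium from the endoplasmic reticulum, differed by paralogue. ITPR2 gave 2056 and 3064 in Jeko-1 and its subline, and 136 and 55.7 in Raji and its subline, the last below the floor. Jeko-1 was 15.1-fold above Raji, and Jeko-1/R was at least 39.5-fold above Raji/R (adjusted limma p 9.1e-05). Within the Raji pair the ITPR2 log2 ratio was -0.82 with the floor, and with a pseudocount in place of the floor it was -1.09, past 2-fold. ITPR3 had the opposite order, at 543, 443, 3496 and 2833, with Raji 6.44-fold and Raji/R 6.40-fold higher (adjusted limma p 0.00016), a call lost without x_at and s_at probe sets (adjusted limma p 0.52). ITPR1 was higher in Jeko-1, at 2314, 2370, 1006 and 1060 by its brightest probe set (adjusted limma p 0.0055). Its next brightest probe set gave a log2 difference of 0.48, a dimmer one 0.02 and another at least 1.65. STIM1, the gene of the sensor that reports the emptying of the store, was higher in Raji, at 228, 193, 579 and 632 (log2 difference -1.53 ± 0.25 SE, adjusted limma p 0.0021), a call lost with the mean of its probe sets (adjusted limma p 0.69). NFAT proteins are transcription factors that enter the nucleus after calcium activates calcineurin. NFATC2 gave 1392 and 1694 in the Jeko-1 pair, while its Raji signals of 8.04 and 19.3 were both below the floor. The Jeko-1 arrays were therefore at least 18.0-fold and at least 21.9-fold higher (adjusted limma p 4.0e-05). Both Raji values were raised to the floor, so no shift within the Raji pair could enter the spread behind this p. NFATC1 gave 3267, 4379, 906 and 1832, so that both sublines were above their parents while both Jeko-1 arrays remained above both Raji arrays (adjusted limma p 0.0025). This direction turned, and the call was lost, when its probe sets were averaged (-0.15) and when x_at and s_at ones were dropped (-1.02). NFATC3 gave 1914, 1555, 1643 and 1271, and the arrays of the lines overlapped.

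**Figure D3:**
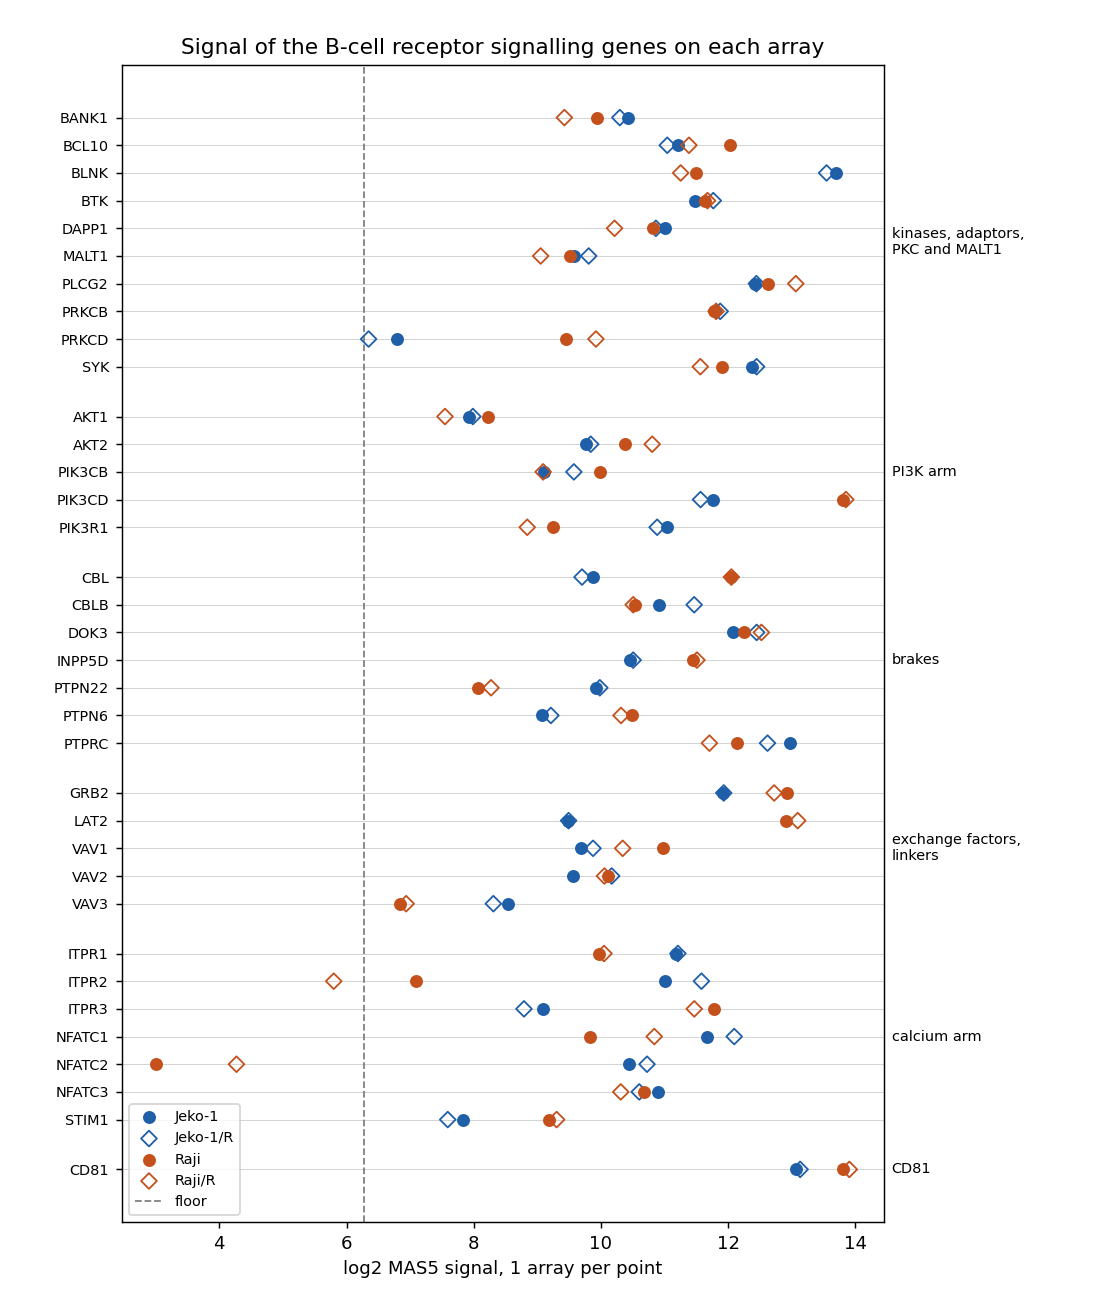
Log2 MAS5 signal (x axis) of the 35 members on each of the 4 arrays, grouped by role, with filled circles for parental and open diamonds for resistant cells, blue for Jeko-1 and orange for Raji, 1 array per point and the floor dashed. Points of 1 colour lie close together for LAT2, PIK3CD, BLNK and ITPR3, where the colours are well separated, and all 4 points lie close together for BTK and PRKCB.

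The sequences upstream of 4 called members are shown because these members had the largest line differences in each direction among those with an entry in the RefSeq promoter table of GRCh38.p14, which held 32 of the 36 members. NFATC2 and BLNK were higher in the Jeko-1 arrays, and PRKCD and ITPR3 in the Raji arrays. Each run gives the 250 bases before the most upstream listed start, 5′ to 3′ on the strand of the gene. NFATC2 lies on the minus strand at chr20:51562840-51563089, BLNK on the minus strand at chr10:96271570-96271819, PRKCD on the plus strand at chr3:53160959-53161208 and ITPR3 on the plus strand at chr6:33621072-33621321. Capitals mark matches on either strand. A box bound by PU.1, a factor of the ETS family, was searched as GAGGAA, and other ETS sites were not searched. E-boxes, which bind factors with a helix-loop-helix fold, were searched as CACGTG. GC boxes, which bind factors of the SP family, were searched as GGGCGG. The core promoter box that positions transcription starts at some genes was searched as TATAAA. None of these motifs overlapped another in the runs shown.
NFATC2: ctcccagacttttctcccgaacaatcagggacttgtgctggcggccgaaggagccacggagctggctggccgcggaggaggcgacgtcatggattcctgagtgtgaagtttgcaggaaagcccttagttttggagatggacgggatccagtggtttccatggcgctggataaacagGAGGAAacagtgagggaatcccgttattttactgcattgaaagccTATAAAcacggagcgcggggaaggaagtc
BLNK: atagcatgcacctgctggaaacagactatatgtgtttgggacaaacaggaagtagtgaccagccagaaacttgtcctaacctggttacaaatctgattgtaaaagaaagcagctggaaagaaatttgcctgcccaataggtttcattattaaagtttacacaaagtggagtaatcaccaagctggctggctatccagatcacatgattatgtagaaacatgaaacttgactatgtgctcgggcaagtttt
PRKCD: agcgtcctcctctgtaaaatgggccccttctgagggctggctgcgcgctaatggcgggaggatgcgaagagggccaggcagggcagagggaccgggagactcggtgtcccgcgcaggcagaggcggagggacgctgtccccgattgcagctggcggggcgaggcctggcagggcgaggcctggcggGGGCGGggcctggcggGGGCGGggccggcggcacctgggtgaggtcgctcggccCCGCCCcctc
ITPR3: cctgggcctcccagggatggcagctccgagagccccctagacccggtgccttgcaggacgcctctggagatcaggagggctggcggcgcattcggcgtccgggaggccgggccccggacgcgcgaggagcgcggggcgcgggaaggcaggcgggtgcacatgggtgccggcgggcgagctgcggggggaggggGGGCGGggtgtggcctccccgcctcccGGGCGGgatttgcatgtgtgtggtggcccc

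The 4 runs differed in base composition. G and C made up 54.8% of the NFATC2 run and 40.4% of the BLNK run, against 75.2% for PRKCD and 76.8% for ITPR3, where the median over 27305 genes was 57.6%. CG dinucleotides numbered 14 in NFATC2, 1 in BLNK, 24 in PRKCD and 26 in ITPR3. The NFATC2 run held 1 GAGGAA and 1 TATAAA, the BLNK run held 0 of the motifs, the PRKCD run held 3 GC boxes and the ITPR3 run held 2. Over all 27305 genes GAGGAA was found in 23.4% of such windows, CACGTG in 6.46%, GGGCGG in 42.2% and TATAAA in 11.2%. Among the 32 members with a window these motifs were found in 11, 3, 20 and 2. These matches describe letters in a window and no binding was measured here.

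A gene's probe sets did not always give the same picture of the lines. The 35 members had 111 probe sets, and 103 of these were at or above the floor somewhere. Of 28 members with 2 or more such probe sets, 22 had probe sets more than 1 apart in the log2 line difference. A state with both sides below the floor entered this count as 0. A difference with 1 side below the floor in either state is a bound and is again written "at least", or "or lower" where it is negative. SYK was the clearest case, since 3 of its probe sets gave differences of 0.33 to 0.68, while another read 1866 and 2152 in the Jeko-1 arrays and 67.9 and 14.1 in the Raji arrays, a mean difference of at least 4.69. PRKCB was level between the lines by its brightest probe set (0.03), whereas its next brightest ones gave 1.82 and 1.90. MALT1 stood at 0.41 and at 2.30 in another probe set, which read 1103, 1122, 258 and 198 on the arrays. CBLB stood at 0.67 and at 2.21. For INPP5D the brightest probe set was higher in Raji, as was a dimmer one (-1.28), but another read 417 and 394 in the Jeko-1 arrays and 68.4 and 120 in the Raji arrays, a difference of at least 2.07. NFATC1 gave 1.55 by its brightest and 0.45 by its next brightest probe set, and -1.02 or lower by a dim one that was below the floor on both Jeko-1 arrays. AKT2 gave -0.79 by its brightest probe set, 0.63 by the next and at least 0.97 by a dimmer one. The brighter NFATC2 probe sets gave at least 4.31 and at least 4.30, while a dim one reached the floor only on the Raji/R array, at 81.5. For ITPR3 the brighter ones gave -2.68 and -2.59. A dim one gave -0.77 or lower between the sublines and another -0.45 or lower between the parents. Each of these had both sides below the floor in the other state. ITPR2 had 3 probe sets with differences of at least 2.32 to at least 4.61 and a dim one with at least 0.29. Positions of the probe sets along the transcripts were not used here.

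**Figure D4:**
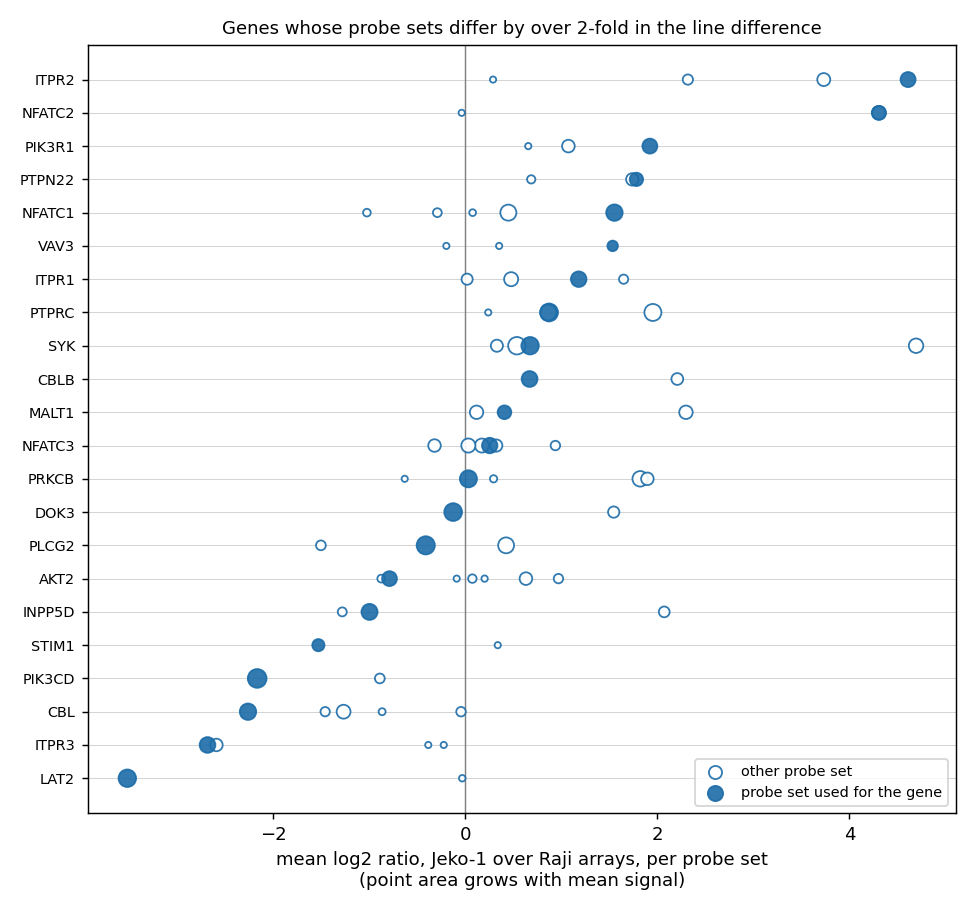
Mean log2 ratio of Jeko-1 over Raji arrays (x axis) for each probe set that reached the floor on at least 1 array, for the 22 members whose probe sets lay more than 1 apart, with the probe set used for the gene filled and point area growing with mean signal. The SYK row has a point at 4.69, a bound, far from the others between 0.33 and 0.68, and the INPP5D row has points on both sides of 0. A state with both sides below the floor enters the mean as 0.

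Within the pairs, 0 of 94 measured probe sets of the members were at least 2-fold higher in Jeko-1/R, against 0.435% of 22317 probe sets, and 0 of 94 were at least 2-fold lower, against 0.551%. In Raji/R, 9 of 92 were at least 2-fold higher, against 7.43% of 26874 probe sets, and 2 of 92 were at least 2-fold lower, against 2.94%. Of the 9 higher probe sets, 3 belonged to NFATC1. Its brightest probe set went from 906 to 1832 in the Raji pair and 2 dim ones from 89.7 to 229 and from 97.9 to 253. The next brightest NFATC1 probe set read 1886 in Raji and 1715 in Raji/R, a log2 ratio of -0.14. The other higher probe sets were dimmer ones of BCL10, AKT2, ITPR1 and DOK3, and the lower ones belonged to NFATC3 and CBL. For BCL10 these gave 1.10 and 1.08, while its brightest probe set gave -0.64.

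Other genes of the pathway, from a list of 50 upstream, parallel and downstream components of which 38 had a value, were counted in the same way. In the Jeko-1 pair 0 of 36 measured genes were 2-fold apart, against 0.38% of all genes higher and 0.595% lower. In the Raji pair 1 of 37 was at least 2-fold higher, against 7.01% of genes, and 1 of 37 at least 2-fold lower, against 2.64%. The higher gene was ORAI1, the plasma membrane calcium channel that STIM1 opens, at 422 in Raji and 909 in Raji/R, with 228 and 236 in Jeko-1 and Jeko-1/R. The lower gene was PPP3CA, a catalytic subunit of calcineurin, at 3013 in Raji and 1385 in Raji/R, with 3436 and 2817 in the Jeko-1 pair. Between the lines 9 of these 37 genes were called higher in Jeko-1 and 19 higher in Raji, against 23.3% and 30.1% of all genes, and for resistance 0 of 37 passed.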

How the data were processed

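RNA of 4 cultures was measured on Affymetrix arrays, 1 per group. Log2 signals were deposited by the authors, made by MAS5 according to the submitters' processing notes, which give no version. That the logarithm has base 2 was inferred from trimmed means, which are alike on all arrays after back-transformation. As a method MAS5 scales an array by 1 factor, so that biases that vary with brightness can remain. Of 54613 probe sets, 41091 had 1 gene symbol in the platform annotation, 1801 several and 11721 none; only the first were used. The 35 symbols of members matched RefSeq (GRCh38.p14) by gene ID. Groups came from the labels. Values were raised to the floor. A pair's ratio was computed where either array reached the floor, with 2-fold as the size counted and no test. Over all 4 arrays a linear model of cell line plus resistance was fitted to 15575 genes with limma 3.58.1 in R 4.3.3, giving moderated two-sided p-values adjusted by the Benjamini-Hochberg method. The cell line pairs the arrays, since a subline came from its parent. Separate cultures of a group are not described by the labels. All members are named; genes of the longer pathway list are named where 2-fold apart in a pair. The members and lists were chosen with earlier results of these data known. Alternatives were other floors, a pseudocount of 16, quantile normalization, a lowess adjustment (fraction 0.3), other probe set choices, an intensity trend, 1.5-fold in place of 2-fold, other model terms and left-out arrays. The fit was tested on simulated data. Python 3.11.15, numpy 2.4.6, pandas 2.3.3, statsmodels 0.14.6 and matplotlib 3.10.9 were used.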

Additional observations from a re-analysis of the deposited data

Results flagged for a closer look

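By their brightest probe sets PIK3CB and ITPR2 were above the parent in Jeko-1/R and below it in Raji/R. Each change was larger than the pooled SD between probe sets of a gene in its pair, and with 1 array per group this difference was not tested. For PIK3CB the log2 ratio in Raji/R minus that in Jeko-1/R was -1.35. The second PIK3CB probe set was near or below the floor on all arrays, and with the mean of its probe sets the Raji/R ratio was 0.56. For ITPR2 the difference was -1.39 with the Raji/R value raised to the floor, so that its size is at least this. The other ITPR2 probe sets gave log2 ratios of 0.21, 0.15 and -0.44 in the Jeko-1 pair and were below the floor on both Raji arrays. With the mean of its probe sets the ITPR2 ratio in Jeko-1/R was 0.12.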

How the results depend on the processing

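The count of members called for resistance over both lines was 0 as reported and in each alternative run, including the fit with no replicate block, in which the cell line was left out; there 4 of 15575 genes and 0 of 35 members had an unadjusted limma p under 0.05. The median of the members moved by less than the SD between probe sets in all alternatives run, and that of the Jeko-1 pair went from 0.05 to -0.02 with the mean of all probe sets and to -0.01 without x_at and s_at probe sets. With 1.5-fold in place of 2-fold, 1 member counted for Jeko-1 and 7 for Raji. The share of all genes at this size was not computed, so these counts say nothing particular about the members. In the Raji pair 2 members counted with the floor at the pooled 25th percentile, with a pseudocount, with quantile normalization and with the lowess adjustment, where ITPR2 joined NFATC1 (log2 ratios of -1.29, -1.09, -1.11 and -1.33), and 2 without x_at and s_at probe sets, whose probes can match several transcripts or genes, where DOK3 joined it (1.22). With the mean of all probe sets the single member counted was PIK3R1 (-1.19), whose dim probe set read 61.1 and 5.81, and not NFATC1. Genes at least 2-fold higher and lower in the Raji pair were 3194 and 1612 of 18315 with the 25th percentile floor, and 2134 and 843 of 14642 with the pseudocount. They were 847 and 735 of 14161 with quantile normalization, and 350 and 806 of 14642 with the lowess adjustment. Without x_at and s_at probe sets they were 880 and 349 of 11777, and with the mean 863 and 354 of 12461. The count of 21 members called between the lines was 13 under the 25th percentile floor, where 31.4% of all genes were called in place of 53.4%, 15 to 25 in the other alternatives and 0 to 19 with an array left out, where 0% to 59.2% of genes were called. In the alternatives with 15 to 25 members called, the share of all genes called ran from 45.4% to 72.3%. The lowest share came with the pseudocount, where 15 members were called. The highest came with the 75th percentile floor, where 24 of 34 members were called. The count of 25 came with the intensity trend (55.6% of genes) and with the lowess adjustment (56.6%). Of the 21, 8 were called in each alternative that gave them a value other than a left-out array. The direction between the lines turned for INPP5D (2.07), NFATC1 (-1.02), AKT2 (0.63) and DOK3 (1.55) without x_at and s_at probe sets, and for NFATC1 (-0.15) and AKT2 (0.062) with the mean of probe sets; the cause was not tested. The uncalled differences of PIK3CB, VAV2 and DOK3 also changed sign with the mean of probe sets, and those of AKT1 and DOK3 with quantile normalization. Members near the floor, PRKCD in Jeko-1 and ITPR2 and VAV3 in Raji, have the least certain ratios.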
